A study of Mus musculus with 11 samples.

Results

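The secreted Wnt modulators examined here were the secreted frizzled-related proteins Sfrp1, Sfrp2, Sfrp5 and Frzb, the Dickkopf family protein Dkk3 and the Wnt inhibitory factor Wif1, in RPE/choroidal tissue of C57BL/6J mice. The 6 genes were chosen by name, and 5 of them had a row among the 14602 genes of the count table, while Wif1 had none. The laser treated group held 5 mice given 2RT nanosecond laser spots when 9 months old and collected at 12 months, and the naïve control group held 6 untreated mice of the same strain collected at 12 months. All animals were wildtype, and the laser was applied as separate spots around the optic nerve head, so each library can mix treated and untreated tissue. Total counts ranged from 25700881 to 38755994 per library after a SmartSeq v4 pre-amplification step. The tissue label was checked against 10 RPE genes, which summed to between 98076 and 136660 CPM, counts scaled to a common library total, in the controls and between 83218 and 134410 CPM in the laser treated libraries. Of these genes Rgr alone averaged 60802 CPM, and 1 was at 0 in some library. The libraries also held RNA of rods and cones, with all 14 listed genes detected in every library and sums from 6525 to 26832 CPM in controls and from 4693 to 20403 CPM after laser. Each file of assembled transcripts carries the label R1 or R2, whose meaning the sources used here do not give. Naïve controls 1 to 3 and laser treated 1 and 2 were R1, and the other 6 libraries were R2.

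Wnt proteins are lipid-modified signals that bind Frizzled receptors and the co-receptors Lrp5 or Lrp6, and so stabilise beta-catenin in the receiving cell. Secreted frizzled-related proteins carry a cysteine-rich domain like that of the receptor and bind Wnt proteins outside the cell, and Wif1 binds Wnt proteins through a domain of its own. The classical Dickkopf proteins bind the Lrp co-receptors, whereas Dkk3 is a divergent member whose action on the pathway depends on the cell. In the eye, Wnt signals help to maintain RPE identity and the ciliary margin, and Norrin acts through Fzd4 to build the retinal vessels. In bulk tissue, fewer cells of a type and less RNA per cell cannot be told apart.

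Dkk3, Sfrp5 and Sfrp1 were abundant members, and Frzb and Sfrp2 were scarce. Per kilobase of exon, the mean level over the 11 libraries was 57.0 ± 38.3 CPM for Dkk3, 41.5 ± 12.2 CPM for Sfrp5 and 39.9 ± 8.35 CPM for Sfrp1 (SD, n = 11). The same measure was 2.08 ± 1.68 CPM for Frzb and 1.27 ± 1.06 CPM for Sfrp2 (SD, n = 11). Among the 14252 genes with a known exon length, Dkk3 ranked at 782, Sfrp5 at 1106, Sfrp1 at 1152, Frzb at 8762 and Sfrp2 at 10161. Sfrp1 exceeded Frzb in 11 of 11 libraries by a mean of 4.58 on the log2 scale of CPM per kilobase (exact two-sided sign-flip permutation test, p = 0.000977, 0.00488 after Benjamini-Hochberg adjustment over 5 pairs). The 5 pairs and their direction were taken from the order of these same means, so their p-values are descriptive. The levels of Dkk3 and Sfrp5 could not be put in order, since Dkk3 was higher in 7 of 11 libraries (exact sign-flip permutation p = 0.634, 0.792 adjusted). The same held for Sfrp5 and Sfrp1, where Sfrp5 was higher in 4 of 11 libraries (exact permutation p = 0.854, 0.854 adjusted), and for Frzb and Sfrp2, where Frzb was higher in 7 of 11 (exact permutation p = 0.140, 0.349 adjusted).

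The members also differed in how steady they were. Across the 11 libraries the coefficient of variation of CPM was 20.9% for Sfrp1, which was lower than the median gene at 34.6%, and 29.4% for Sfrp5. It reached 67.1% for Dkk3, 80.8% for Frzb and 83.3% for Sfrp2, each above that of at least 80.4% of all genes. Sfrp1 varied 1.82-fold between its lowest and highest library, Sfrp5 2.77-fold, Dkk3 6.99-fold and Frzb 8.19-fold, and Sfrp2 103-fold from a lowest library of 2 counts.

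The comparison of laser treated with naïve animals asks whether treatment left a lasting change in these genes 3 months later. None of the 5 members passed an adjusted p of 0.05 (edgeR quasi-likelihood test with Benjamini-Hochberg adjustment), and 0 of 14602 genes did (0%). At an unadjusted p under 0.05 the count was 0 of 5 members against 2325 of all genes (15.9%), made up of 8.24% higher and 7.68% lower after laser. Over 26 other settings, which include each library left out, the unadjusted p was under 0.05 in 5 for Frzb, 2 for Sfrp1, 1 for Sfrp5 and 1 for Dkk3, and in 0 of 25 for Sfrp2. DESeq2 called 547 genes at an adjusted p under 0.05 and none of these members. It gave no adjusted value to 7656 of the 14602 genes, Sfrp2 and Frzb among them. The CPM ranges of the groups overlapped for 5 of 5 members, and 2.26% of all genes had groups that did not overlap. Sfrp2, Sfrp5 and Dkk3 had positive log2 fold changes and Sfrp1 and Frzb negative ones, beside 48.5% positive over all genes.

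**Figure D1:**
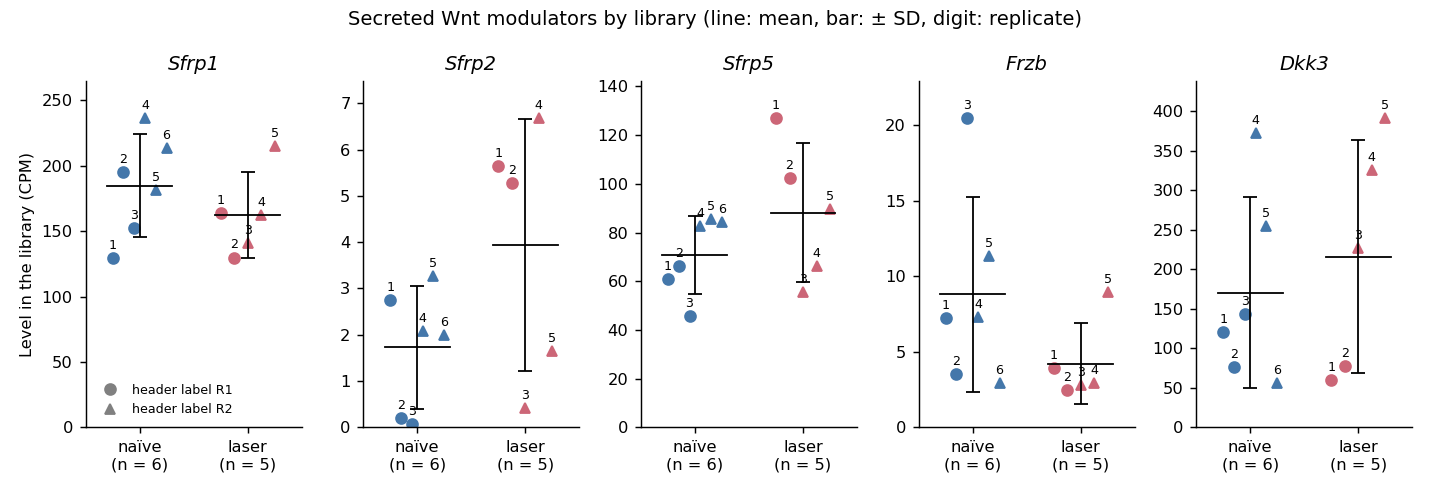
Level of each counted member in CPM (y axis, linear from 0) in the 6 naïve control and 5 laser treated libraries, with 1 point per library, its replicate number, circles for header label R1 and triangles for R2. Horizontal lines are group means and bars are ± SD. The groups overlap in every panel, and the R2 libraries hold the 5 highest Dkk3 values.

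Sfrp1, a member of the frizzled-related family and a modulator of eye development, lies on chromosome 8 (GRCm38, 23411502 to 23449632, plus strand). In naïve controls it ranged from 129.6 to 236 CPM with a median of 188. In laser treated replicates 1 to 5 it was 164, 129.8, 141, 163 and 215 CPM. Laser treated 5 alone lay above the control median, yet all 5 values were inside the control range. The mean was 185 ± 39.2 CPM in controls (SD, n = 6) and 162 ± 32.8 CPM after laser (SD, n = 5). The log2 fold change was -0.19 (SE 0.17, edgeR adjusted p = 0.662, exact two-sided permutation p = 0.348 on log2 CPM), and ±2 SE spans -0.52 to 0.15.

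Sfrp1 was also the member whose answer depended most on which deposited values were used. When the TPM of the transcript files was summed over the gene, the log2 fold change became -1.19 on the log2(TPM + 1) scale (SE 0.34, limma adjusted p = 0.202), where 14.7% of genes had an unadjusted p under 0.05. In naïve controls 1 to 4 the assembled block over the last exon was only 207 to 253 bases long, starting no earlier than position 23449416 on chromosome 8, within the untranslated end of the transcript. In naïve controls 5 and 6 and in every laser treated library the block was 3466 to 3500 bases long, starting at most at position 23446165, and covered nearly the whole exon. Together the blocks covered 23.6% to 23.9% of the exon bases in the former libraries and 98.1% to 98.2% in the latter. The short blocks had a mean coverage of 731 to 1345, against 146 to 246 over the long ones. Their summed TPM was 173 to 320, against 68.7 to 91.6 in the other 7 libraries, so the TPM of the gene was highest where the least of it was assembled.

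The count table did not show this split. Naïve controls 1 to 4 held 4577 to 7860 counts of Sfrp1 and the other 7 libraries 4777 to 7155. Covered exon bases per count were 45.5 to 59.9 in naïve controls 1 to 4 and 134 to 138 elsewhere, while for Sfrp5 they were 123 to 126 in all 11 libraries. Of the 3333 genes with at least 1000 counts in every library, 19.0% differed by more than 2-fold between libraries in covered bases per count. Only 1 of these genes, Sfrp1 itself, was more than 2-fold lower in each of naïve controls 1 to 4 than in every other library. That search was made after the values of Sfrp1 were seen, and the cause was not tested.

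**Figure D2:**
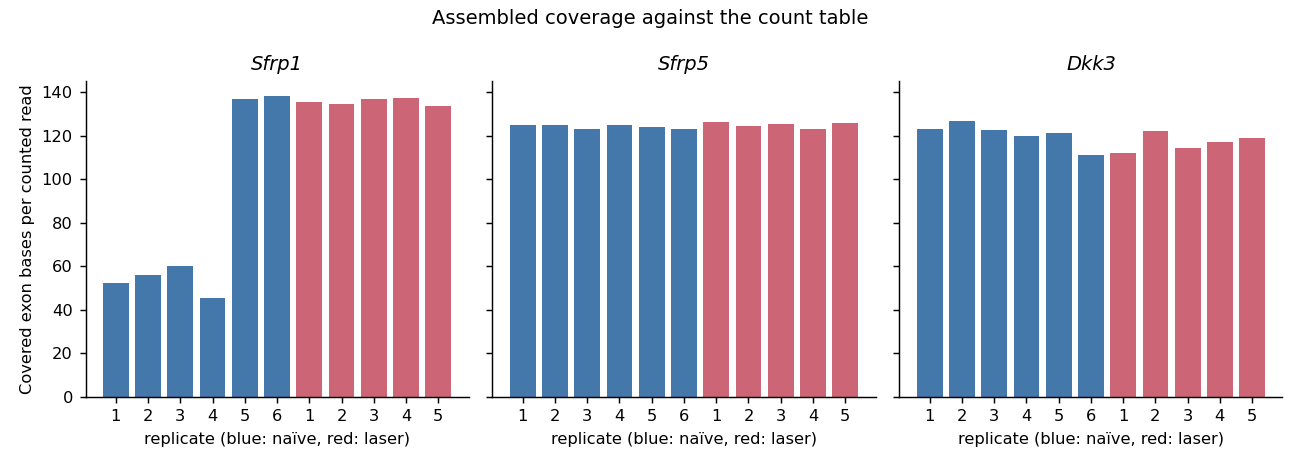
Exon bases covered by assembled transcripts per counted read (y axis, linear from 0) for Sfrp1, Sfrp5 and Dkk3 in each library (x axis, replicate number, blue naïve control and red laser treated). Sfrp1 sits at 45.5 to 59.9 in naïve controls 1 to 4 and at 134 to 138 in the other 7 libraries.

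Sfrp5, a frizzled-related protein known to be made by the RPE, lies on chromosome 19 (42197971 to 42202252, minus strand). Sfrp2, a relative found in stromal cells, lies on chromosome 3 (83766321 to 83774316, plus strand), and its exons overlap the antisense gene Gm26771, so that reads of the pair cannot be told apart without strand. The 250 bases before the RefSeq start of these genes and of Frzb are shown because these are the counted members with an entry in the promoter table, and Sfrp2 and Sfrp5 were the pair whose levels ran most alike. They are Sfrp2 chr3:83766071-83766320 on the plus strand, Sfrp5 chr19:42202253-42202502 on the minus strand and Frzb chr2:80447397-80447646 on the minus strand (GRCm38.p6), written 5′ to 3′ in the direction of the gene. Capitals mark matches on either strand to the TCF/LEF core CTTTG, the OTX core TAATCC or the TATA box TATAAA.
Sfrp2: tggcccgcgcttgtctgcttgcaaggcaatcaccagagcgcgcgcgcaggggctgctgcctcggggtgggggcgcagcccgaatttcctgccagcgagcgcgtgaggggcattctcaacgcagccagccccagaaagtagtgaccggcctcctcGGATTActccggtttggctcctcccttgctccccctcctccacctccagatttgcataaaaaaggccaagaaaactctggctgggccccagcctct
Sfrp5: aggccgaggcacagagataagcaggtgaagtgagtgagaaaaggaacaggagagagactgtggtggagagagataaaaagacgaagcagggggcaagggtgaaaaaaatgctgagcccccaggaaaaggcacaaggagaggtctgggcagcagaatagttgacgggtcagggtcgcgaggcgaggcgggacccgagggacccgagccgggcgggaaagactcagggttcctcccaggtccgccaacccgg
Frzb: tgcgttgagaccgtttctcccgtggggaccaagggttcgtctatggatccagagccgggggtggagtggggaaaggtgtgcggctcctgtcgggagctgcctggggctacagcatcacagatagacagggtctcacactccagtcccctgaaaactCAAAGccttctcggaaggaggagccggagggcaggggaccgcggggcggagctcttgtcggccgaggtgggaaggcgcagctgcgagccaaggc
The Sfrp2 stretch holds 1 OTX core, read as GGATTA, and the Frzb stretch holds 1 TCF/LEF core, read as CAAAG. The Sfrp5 stretch holds none of the 3 motifs. Of 32851 RefSeq promoters of this length, 6.25% hold the OTX core, 48.6% the TCF/LEF core and 12.4% the TATA box. GC content is 63.6% for Sfrp2, 59.6% for Sfrp5 and 64.4% for Frzb, beside a median of 52.4% for all promoters. By the gene positions used here, the first exon of Frzb reaches to 80447625. Most of the Frzb stretch, with its marked CAAAG, therefore lies inside that exon. These matches describe the letters only.

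Sfrp5 ranged from 45.8 to 85.7 CPM in naïve controls with a median of 74.3. In laser treated replicates 1 to 5 it was 127, 102.4, 55.6, 66.4 and 89.5 CPM. Laser treated 1, 2 and 5 lay above every control, whereas laser treated 3 and 4 lay below the control median. The mean was 70.9 ± 16.0 CPM in controls (SD, n = 6) and 88.2 ± 28.5 CPM after laser (SD, n = 5). The log2 fold change was 0.31 (SE 0.22, edgeR adjusted p = 0.536, exact two-sided permutation p = 0.288 on log2 CPM), with ±2 SE from -0.13 to 0.75.

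The Sfrp5 difference turned with the header label. Among R1 libraries the controls held 61.0, 66.2 and 45.8 CPM and the laser treated 127 and 102.4 CPM. The log2 fold change there was 1.01 (SE 0.24, edgeR adjusted p = 0.154, with 17.6% of genes at an unadjusted p under 0.05). Among R2 libraries the controls held 82.5, 85.7 and 84.3 CPM and the laser treated 55.6, 66.4 and 89.5 CPM, with a log2 fold change of -0.23 (SE 0.21, edgeR adjusted p = 0.886, with 6.22% of genes at an unadjusted p under 0.05). The difference between the labels, R2 minus R1, was -1.25 on the log2 scale (SE 0.31, edgeR interaction adjusted p = 0.321), where 9.5% of all genes had an unadjusted p under 0.05. The ratio of Sfrp5 to Sfrp1 CPM was 0.775 and 0.789 in laser treated 1 and 2 and between 0.3003 and 0.473 in the other 9 libraries.

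Sfrp5 ran opposite to photoreceptor RNA. Over the 11 libraries the log2 CPM of Sfrp5 and the log2 of the summed rod and cone genes had Pearson's r = -0.92 (permutation test, p = 3e-05, 0.00195 adjusted over 65 relations of members with marker lists) and Spearman's rho = -0.92 (permutation p = 0.00024, 0.0156 adjusted). Without the 2 libraries farthest from the median of the rod and cone sum, naïve controls 1 and 3, r was -0.88. It was -0.90 within the 6 R2 libraries and -0.91 after removing the group means. The R1 libraries were too few for a value of their own. Laser treated 1, 2 and 5, with the 3 lowest rod and cone sums, held the 3 highest Sfrp5 levels. The rod and cone sum also turned with the header label. In R1 it was 22757, 12076 and 26832 CPM in controls and 4693 and 6042 CPM after laser. In R2 it was 7920, 9583 and 6525 CPM in controls and 19809, 20403 and 4740 CPM after laser. With the rod and cone sum as a covariate, the log2 fold change of Sfrp5 was 0.10 (SE 0.13, edgeR adjusted p = 0.775). The part of photoreceptor RNA in the Sfrp5 values was not tested beyond this fit, which was added after the data were seen.

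Of the other 12 lists, that of pericyte and smooth muscle markers was the one whose relation with Sfrp5 also passed the adjustment. The 10 genes, of which 2 were at 0 in some library and Acta2 alone averaged 216 CPM, summed to 191 to 297 CPM in controls and to 216 to 347 CPM after laser, and r with Sfrp5 was 0.87 (permutation p = 0.00066, 0.0215 adjusted over 65 relations), with rho = 0.87 (permutation p = 0.00082, 0.0267 adjusted). Without laser treated 2 and naïve control 3, r was 0.77, and within the R2 libraries it was 0.59. Müller glia (r = 0.69), Schwann cell (r = 0.69), skeletal muscle (r = 0.66) and inner retinal neuron (r = -0.65) sums had an unadjusted permutation p under 0.05 for r with Sfrp5 and did not pass the adjustment. The RPE sum had r = 0.57 with Sfrp5 (permutation p = 0.0631, 0.256 adjusted) and rho = 0.64 (permutation p = 0.0393, 0.367 adjusted). Its r was 0.70 without naïve control 6 and laser treated 4 and 0.53 within R2, and it did not pass the adjustment either. The Müller glia sum ran from 2286.5 to 3607 CPM in controls and from 3044 to 3983 CPM after laser. Car14 alone averaged 2467 CPM, so that sum is mostly 1 gene and cannot be taken as a measure of Müller glia. Whether the sums follow the cells they are named for, and the part of such cells in the Sfrp5 level, was not tested.

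**Figure D3:**
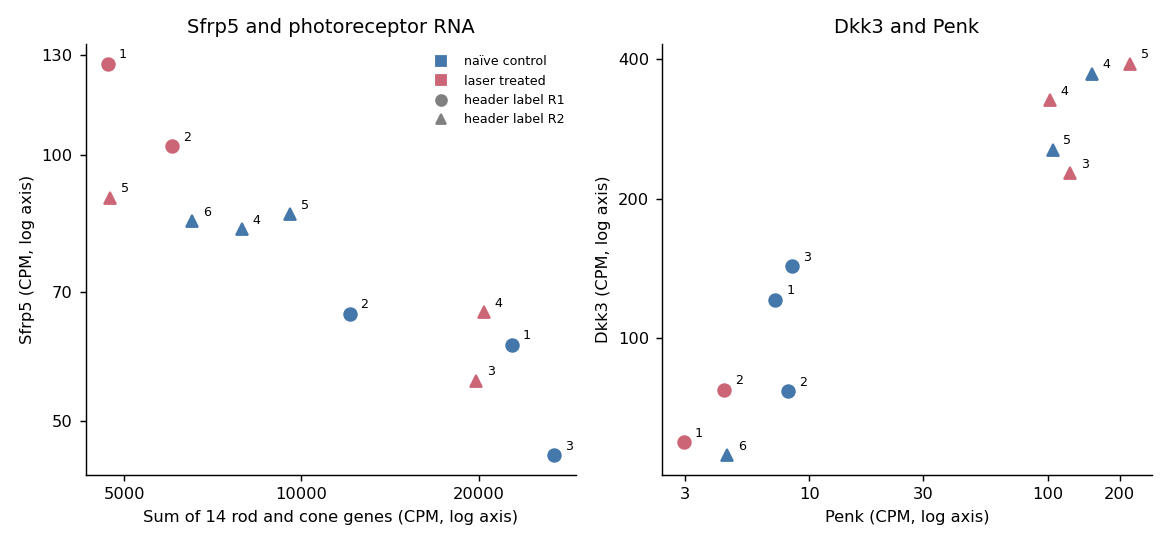
Left, Sfrp5 in CPM (y, log axis) against the summed CPM of 14 rod and cone genes (x, log axis). Right, Dkk3 in CPM (y, log axis) against Penk in CPM (x, log axis). Each point is 1 of 11 libraries with its replicate number, blue naïve control and red laser treated, circles R1 and triangles R2. Sfrp5 is lower where the rod and cone sum is higher, and Dkk3 and Penk form separate low and high sets of libraries.

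Sfrp2 was close to the limit of detection in part of the libraries. It ranged from 0.0646 to 3.28 CPM in naïve controls with a median of 2.03, and was 5.63, 5.27, 0.428, 6.68 and 1.65 CPM in laser treated replicates 1 to 5. Laser treated 1, 2 and 4 lay above every control, while laser treated 3 and 5 fell among the controls. The lowest library held 2 counts and the highest 233, so the low values rest on few reads. The mean was 1.73 ± 1.32 CPM in controls (SD, n = 6) and 3.93 ± 2.72 CPM after laser (SD, n = 5), a log2 fold change of 1.18 (SE 0.89, edgeR adjusted p = 0.573, exact two-sided permutation p = 0.234 on log2 CPM). The ±2 SE interval from -0.59 to 2.96 holds both no difference and a several-fold one. Within R1 the log2 fold change was 2.45 (SE 1.41, edgeR adjusted p = 0.422) and within R2 it was 0.28 (SE 0.99, edgeR adjusted p = 0.988).

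Frzb, a Wnt-binding protein best known from cartilage and also called Sfrp3, lies on chromosome 2 (80411970 to 80447625, minus strand). It ranged from 2.93 to 20.5 CPM in naïve controls with a median of 7.29. In laser treated replicates 1 to 5 it was 3.95, 2.501, 2.80, 2.95 and 8.96 CPM. Laser treated 2 and 3 lay below every control, and only laser treated 5 exceeded the control median. The mean was 8.81 ± 6.48 CPM in controls (SD, n = 6) and 4.23 ± 2.70 CPM after laser (SD, n = 5). The log2 fold change was -1.06 (SE 0.53, edgeR adjusted p = 0.353, exact two-sided permutation p = 0.132 on log2 CPM), with ±2 SE from -2.12 to 0.0045. Its unadjusted p was the lowest of the members and ranked at 2772 among all genes. Naïve control 3 held the highest value, and without it the log2 fold change was -0.62 (edgeR adjusted p = 0.682), while without laser treated 5 it was -1.53 (edgeR adjusted p = 0.173). Within R1 it was -1.65 (SE 0.79, edgeR adjusted p = 0.333) and within R2 -0.52 (SE 0.69, edgeR adjusted p = 0.935).

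Dkk3, the abundant Dickkopf relative, lies on chromosome 7 (112116017 to 112159057, minus strand). It ranged from 56.0 to 372 CPM in naïve controls with a median of 132. In laser treated replicates 1 to 5 it was 59.8, 77.4, 227, 326 and 391 CPM. Both groups held low and high libraries, since naïve controls 4 and 5 and laser treated 3 to 5 lay at 227 to 391 CPM and the other 6 at 56.0 to 143 CPM. The mean was 171 ± 121 CPM in controls (SD, n = 6) and 216 ± 147 CPM after laser (SD, n = 5), a log2 fold change of 0.34 (SE 0.57, edgeR adjusted p = 0.845, exact two-sided permutation p = 0.675 on log2 CPM). The ±2 SE interval ran from -0.80 to 1.49.

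The 5 high libraries of Dkk3 all carried label R2, where naïve control 6, at 56.0 CPM, was the exception. R2 exceeded R1 by 1.52 on the log2 scale beside the treatment (SE 0.43, edgeR adjusted p = 0.925), and 4.21% of all genes had an unadjusted p under 0.05 for this term. With the label as a covariate the laser effect was -0.05 (SE 0.42, edgeR adjusted p = 0.975). Within R1, the controls held 121, 76.9 and 143 CPM and the laser treated 59.8 and 77.4 CPM, with a log2 fold change of -0.70 (SE 0.29, edgeR adjusted p = 0.265). Within R2 the value was 0.49 (SE 0.56, edgeR adjusted p = 0.921). The difference between the labels was 1.20 on the log2 scale (SE 0.76, edgeR interaction adjusted p = 0.681).

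The genes most like each member over the 11 libraries were sought among 13701 genes with a mean of at least 1 CPM, by Pearson's r of log2 CPM. For Dkk3 these were Penk, which encodes proenkephalin, with r = 0.95, the matrix protein gene Efemp1 with r = 0.94 and the anion channel gene Best2 with r = 0.93. Penk stood at 102 to 221 CPM in the 5 libraries with high Dkk3 and at 2.98 to 8.43 CPM in the other 6. Best2, known from the ciliary epithelium, stood at 2.11 to 12.3 CPM in those 5 libraries and at 0 to 0.0283 CPM in the others. The libraries fell into separate sets for these genes, so the r values are a description only. Of the marker lists, that of inner retinal neurons had r = 0.77 with Dkk3 (permutation p = 0.00855, 0.136 adjusted) and rho = 0.63 (permutation p = 0.0444, 0.367 adjusted). Its r was 0.58 without naïve control 6 and laser treated 1, and that relation did not pass the correction. The RPE list had r = -0.68 with Dkk3 (permutation p = 0.0192, 0.136 adjusted) and rho = -0.62 (permutation p = 0.0485, 0.367 adjusted). Its r was -0.56 without naïve control 6 and laser treated 4 and -0.68 within R2, and this relation also failed the correction. The sum of 6 surface epithelium markers, which ran from 3.50 to 1423 CPM over the libraries, had r = 0.79 with Sfrp1 (permutation p = 0.00471, 0.102 adjusted over 65 relations) and rho = 0.77 (permutation p = 0.00733, 0.119 adjusted), with r = 0.88 without laser treated 1 and 2 and 0.88 within R2, and it did not pass the correction either. Frzb also had an unadjusted permutation p under 0.05 for r with the inner retinal neuron sum (r = 0.67) and the Müller glia sum (r = -0.72). The same held for Sfrp2 with pericyte and smooth muscle (r = 0.68) and macrophage (r = 0.67) sums, and for Sfrp1 with melanocytes (r = 0.66). These relations had an adjusted permutation p of 0.136 and did not pass the correction. The part of these cells in the member levels was not tested.

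For Sfrp5 the most alike genes were Nxn, a redoxin that binds Dishevelled, with r = 0.98, the glutaryl-CoA dehydrogenase gene Gcdh with r = 0.94 and Ndrg2 with r = 0.93. For Sfrp1 they were Oxct1, a ketone body enzyme, with r = 0.96, and Gabra4, a GABA receptor subunit, with r = 0.91. For Frzb they were Zc4h2 with r = 0.92 and Gm5918 with r = 0.91, and for Sfrp2 Pdgfc, a growth factor gene, with r = 0.89, Tctn1 with r = 0.89 and Rabgap1 with r = 0.88. All of these are over 11 libraries and were picked from the highest of 13701 genes.

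Of the 10 pairs of members, Sfrp2 and Sfrp5 had the highest r of log2 CPM at 0.72 (permutation p = 0.0124, 0.124 adjusted over 10 pairs) with rho = 0.60 (permutation p = 0.0569, 0.569 adjusted), and r was 0.54 without naïve controls 2 and 3. Within the 6 R2 libraries it was 0.40, while Sfrp5 had r = 0.87 with Sfrp1 and 0.71 with Frzb there, beside 0.26 and -0.32 over all 11 libraries. No pair passed the correction. The makeup of the summed members changed with Dkk3, which took 53.1% of the 700.5 CPM of the members in naïve control 4 and 15.6% of the 359 CPM in naïve control 6.

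Wif1 could be followed only in the transcript files. A block over its last exon, on chromosome 10 within 121099828 to 121100619, was assembled in naïve control 4, with a mean coverage of 7.09 over 792 bases, and in laser treated 5, with 9.78 over 483 bases. No block overlapped a Wif1 exon in the other 9 libraries, which says that none was assembled there and not that the gene was silent. Naïve control 4 and laser treated 5 also held the 2 highest values of Sfrp1 and of Dkk3.

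**Figure D4:**
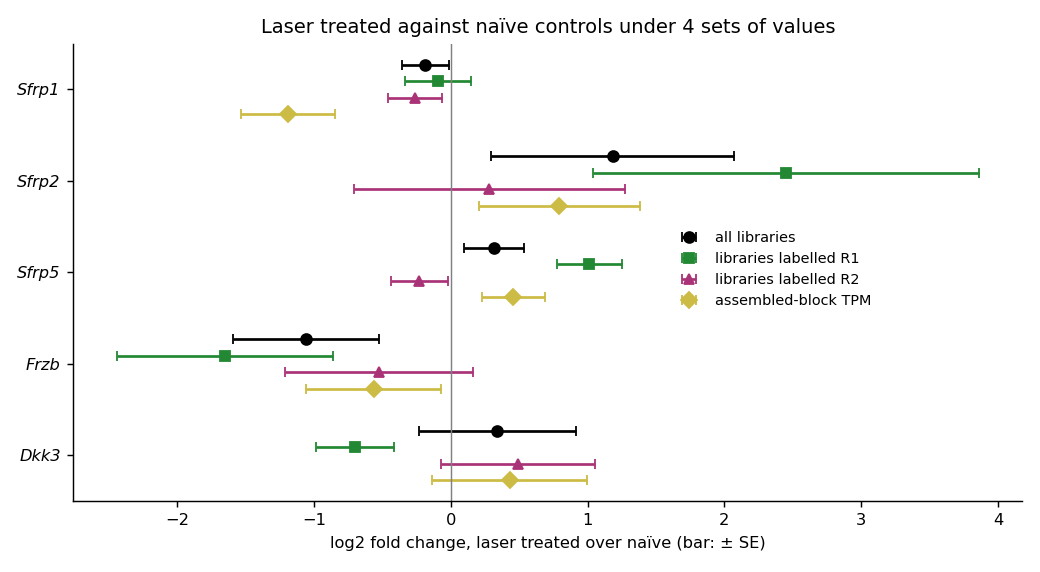
log2 fold change of laser treated over naïve control for each counted member (x axis, bars ± SE) from all libraries, from R1 libraries, from R2 libraries and from the TPM of assembled blocks. Sfrp1 moves to -1.19 with block TPM, Sfrp5 is 1.01 in R1 and -0.23 in R2, and Dkk3 is -0.70 in R1 and 0.49 in R2.

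The rest of the pathway was described from lists by role. Of 18 other secreted modulators listed, 9 were in the count table. In edgeR 0 of 9 had an unadjusted p under 0.05, beside 15.9% of all genes. The most abundant was Sostdc1, an antagonist of Wnt and BMP signals, at 348 ± 62.7 CPM in controls (SD, n = 6) and 310 ± 124 CPM after laser (SD, n = 5), with a log2 fold change of -0.17 (adjusted p = 0.807). Igfbp4 stood at 30.4 ± 14.4 CPM in controls (SD, n = 6) and 36.9 ± 13.0 CPM after laser (SD, n = 5). Trabd2b, a protease that inactivates Wnt proteins and is listed as Gm12824, stood at 16.0 ± 4.01 CPM in controls (SD, n = 6) and 22.9 ± 11.6 CPM after laser (SD, n = 5). The remaining 6 were low. Control means were 3.93 CPM for Dkk2, 3.83 CPM for Ndp, which encodes Norrin, and 2.88 CPM for the R-spondin Rspo2. They were 2.25 CPM for Sfrp4, 1.57 CPM for Apcdd1 and 0.951 CPM for Notum, and after laser the 6 genes had means of 3.84, 3.29, 3.45, 1.78, 3.83 and 1.83 CPM in the same order.

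Of 21 ligands and secretion factors, 11 were measured. The carrier Wls was abundant at 1144 ± 124 CPM in controls (SD, n = 6) and 1095 ± 186 CPM after laser (SD, n = 5), with an adjusted p of 0.875 in edgeR. Porcn, the acyltransferase that lipidates Wnt proteins, was the 1 gene with an unadjusted p under 0.05 (9.1%, beside 15.9% of all genes). Its log2 fold change was 0.37 (edgeR adjusted p = 0.303). The median log2 fold change of the list was -0.13, beside -0.02 for all genes.

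Of 24 receptors and co-receptors, 21 were measured, and 3 had an unadjusted p under 0.05 (14.3%, beside 15.9% of all genes). These were the co-receptor Lrp6 with a log2 fold change of -0.47 (edgeR adjusted p = 0.292), the receptor-like Ptk7 with 1.76 (adjusted p = 0.195) and the R-spondin receptor Lgr5 with -3.45 (adjusted p = 0.214). Lgr5 reached 7.05 CPM in controls and at most 0.487 CPM after laser, but naïve controls 2 and 6 held only 0.0406 and 0.423 CPM. The Norrin receptor Fzd4 had a log2 fold change of 0.08 (adjusted p = 0.873), its partner Tspan12 0.19 (adjusted p = 0.871) and Lrp5 0.55 (adjusted p = 0.615).

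All 27 intracellular components were measured, 4 of them with an unadjusted p under 0.05 (14.8%, beside 15.9% of all genes). Axin1, a scaffold of the destruction complex, had a log2 fold change of 0.63 (edgeR adjusted p = 0.216). Its laser treated values of 29.6 to 36.7 CPM lay above every control at 10.8 to 28.0 CPM, and 2.26% of all genes had groups that did not overlap. Csnk1d had 0.43 (adjusted p = 0.251), Dvl1 0.39 (adjusted p = 0.303) and the kinase Gsk3b -0.33 (adjusted p = 0.299). Ctnnb1, which encodes beta-catenin, stood at 441 ± 42.2 CPM in controls (SD, n = 6) and 448 ± 16.8 CPM after laser (SD, n = 5), with a log2 fold change of 0.02 (SE 0.10, edgeR adjusted p = 0.944).

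Of 16 target genes, 14 were measured and 2 had an unadjusted p under 0.05 (14.3%, beside 15.9% of all genes). These were Lgr5 and the feedback inhibitor Nkd1, which had a log2 fold change of 1.21 (edgeR adjusted p = 0.238). Axin2, the most used readout of the pathway, stood at 2.34 ± 0.935 CPM in controls (SD, n = 6) and 4.23 ± 1.66 CPM after laser (SD, n = 5), with a log2 fold change of 0.85 (edgeR adjusted p = 0.399). Lef1 had 0.39 (adjusted p = 0.906) and Ccnd1 0.15 (adjusted p = 0.735). Over the 75 pathway genes measured, 9 had an unadjusted p under 0.05 (12.0%, beside 15.9% of all genes). None of the 75 had an adjusted p under 0.05 in edgeR. Their median log2 fold change was 0.18, beside -0.02 for all 14602 genes.

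**Figure D5:**
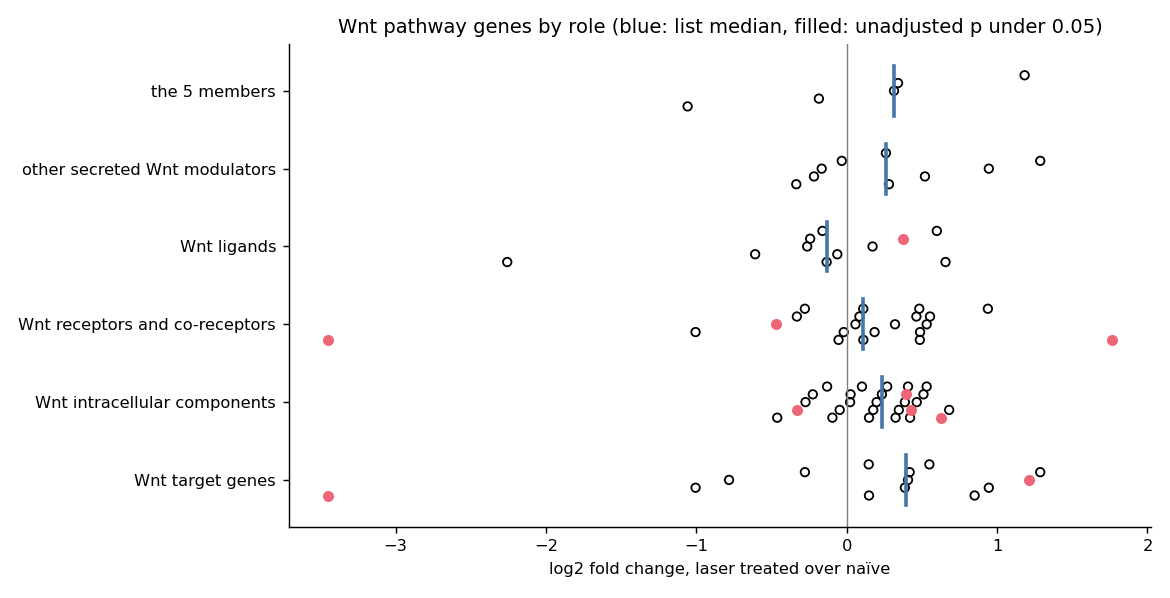
log2 fold change of laser treated over naïve control (x axis) for the 5 counted members and the measured genes of each Wnt pathway list (rows). Each circle is 1 gene, filled where the unadjusted edgeR p was under 0.05, and blue lines are list medians. No member is filled, and the farthest filled points are Lgr5 at -3.45 and Ptk7 at 1.76.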

How the data were processed

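The authors isolated RPE/choroidal RNA, pre-amplified it with SmartSeq v4 and made NexteraXT libraries. Per the labels' processing notes the tools were bcl2fastq 2.18.0.12, Trim Galore, STAR 2.5.3a, featureCounts 1.5.3, StringTie 1.3.3 and edgeR 3.22.3, on mm10/GRCm38. The authors deposited raw counts per gene for 11 libraries, with columns of their own comparison that were not used, and per library the single-exon transcripts assembled by StringTie, with coverage and TPM.

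Counts were compared with edgeR 4.0.16 in R 4.3.3 (TMM normalization, filterByExpr, which removed 0 of 14602 genes, robust quasi-likelihood fits, Benjamini-Hochberg adjustment over all genes). Replicates were numbered as in the labels, and the fold change SE gives the precision at this depth. CPM used TMM library sizes, and log2 CPM a prior count of 2. Exon lengths, positions and GC content came from GENCODE M21. Promoters came from RefSeq, which held 4 of 6 members, with Sfrp1 and Dkk3 missing. Transcript TPM were summed by exon overlap and tested with limma 3.58.1. Alternatives included DESeq2 1.42.0, other scalings, header labels and left-out libraries. Correlations used 100000 permutations. Python 3.11.15, scipy 1.17.1 and pandas 2.3.3 were used, and scripts were tested on simulated data.

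Named genes were the members, the other secreted modulators, for each further list the genes with an unadjusted p under 0.05 and a few set pathway genes, and the 3 genes most like each member, of which some are not reported here. Members and lists were chosen with earlier results of these data known. Animals of the groups differ, and only 2 of 5 same-numbered pairs of libraries had deviations correlated above 0.1 (range -0.0094 to 0.28), so the numbers were not taken as pairs.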

Additional observations from a re-analysis of the deposited data

Results flagged for a closer look

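Within a group, a library can stand far from the rest by Dixon's test. For normally distributed values, chance alone gives this in about 1 of 20 groups. Whether these CPM are so distributed was not tested, so the number flagged cannot be set against that rate. Of 62 groups of values examined, 6 held such a library. Among the members this was Frzb in laser treated 5, at 8.96 CPM with the other laser treated libraries at 2.501 to 3.95 CPM. Among the other secreted modulators, Notum stood at 3.55 CPM in naïve control 4, where the other controls held 0.0969 to 0.811 CPM, and at 8.14 CPM in laser treated 5, where the others held 0 to 1.03 CPM. Rspo2 stood at 8.24 CPM in laser treated 5, against 1.17 to 3.05 CPM in the others. Apcdd1 stood at 10.1 CPM in laser treated 4, against 0.712 to 3.13 CPM, and Gm12824, the row of Trabd2b, at 43.4 CPM in laser treated 2, against 14.9 to 19.8 CPM.

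The laser effect on Sfrp5 differed between the header labels, with log2 fold changes of 1.01 in R1 and -0.23 in R2 and a difference of -1.25 (edgeR interaction, adjusted p = 0.321), so the difference did not pass the correction over all genes. The rod and cone sum, given above by label, also turned, and its part in this difference was not tested.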

How the results depend on the processing

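No member passed an adjusted p of 0.05 under any alternative run. DESeq2 gave no adjusted p to 7656 of 14602 genes, Sfrp2 and Frzb among them. Leaving out each library in turn gave log2 fold changes of -0.31 to -0.11 for Sfrp1, 0.89 to 1.47 for Sfrp2, 0.15 to 0.44 for Sfrp5, -1.53 to -0.62 for Frzb and 0.015 to 0.72 for Dkk3. The sign turned for Dkk3 with the header label as a covariate (-0.048) and within R1 (-0.70), for Sfrp5 within R2 (-0.23) and for Lrp6 within R2 (0.021), and the cause was not tested. Fits with the replicate number as a block gave -0.15 for Sfrp1, 1.70 for Sfrp2, 0.33 for Sfrp5, -1.17 for Frzb (edgeR adjusted p = 0.242) and 0.0049 for Dkk3, and the numbers do not mark shared animals.

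The count of genes with an adjusted p under 0.05 was 547 with DESeq2, 2 with at least 10 counts in every library, 1 with limma voom, 2 with log2(TPM + 1) or log2(TPM + 0.1), 4 without laser treated 2 and 0 in each of the other alternatives, so the range with 1 library left out was 0 to 4. The counts with an unadjusted p under 0.05 in the pathway lists are small and moved easily. For other secreted modulators (0 in the reported fit) it was 1 with DESeq2, with at least 10 counts, with log2(TPM + 0.1), within R2, with the GC trend removed and with the rod and cone covariate, 2 with log2(TPM + 1), and 0 to 1 with a library left out. For ligands (1) it was 2 within R1, 0 with DESeq2, at least 10 counts, voom, the block, the label covariate, the GC trend removed (also with the block) or the rod and cone covariate, and 0 to 1 with a library left out. For receptors (3) it was 1 with at least 10 counts, 5 within R1, and 2 to 4 with a library left out. For intracellular components (4) it was 2 with the label covariate or with the block and GC trend removed, 0 within R2, 1 with the GC trend removed, and 1 to 5 with a library left out. For targets (2) it was 0 with either block or within R1, 4 with the GC trend removed or the rod and cone covariate, and 1 to 3 with a library left out. The rod and cone covariate and the block with GC trend removed were chosen after seeing the data.

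Depth limited the scarce members, with as few as 2 counts of Sfrp2 and 87 of Frzb in a library. Fitted folds of Sfrp2 rest on these counts.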
